A study of Mus musculus with 6 samples.

Results

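Glyceroneogenesis and glycerol handling were examined through 9 genes: Pck1, Pck2, Pcx, Gpd1, Gpd2, Gk, Aqp7, Pdk2 and Pdk4. A gene was taken as measured where a probe set of the array was annotated with its symbol alone, and where there were several the brightest on average over the 6 arrays was used. By this rule 8 of the 9 genes were measured, among 22180 genes tested in all. Gk, the glycerol kinase gene, had no such probe set and was not analysed here. Gpd1 had 2 probe sets and each of the other measured genes had 1.

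The study profiled adipose tissue of mouse offspring aged 32 weeks with 6 one-colour arrays, 1 per sample. The mothers of 3 samples had been fed a diet restricted in chromium, a trace metal, and the mothers of the other 3 a control diet. The design addresses how the maternal diet relates to gene expression in the fat of the adult offspring. No label states whether each sample was a different animal or litter, so the p-values measure only the spread between these samples, which may be technical. The sources used here do not give strain, sex, fat depot, feeding state or the length of the maternal diet. Samples are called restricted arrays 1 to 3 and control arrays 1 to 3 by the replicate numbers of their labels. Values are the deposited values, taken as log2, and all differences are chromium restriction minus control on that scale.

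Fat cells store fatty acids as triglyceride, which needs glycerol 3-phosphate as its backbone. In glyceroneogenesis this backbone is made from pyruvate or amino acids: pyruvate carboxylase (Pcx) forms oxaloacetate, phosphoenolpyruvate carboxykinase (Pck1 in the cytosol, Pck2 in mitochondria) converts it to phosphoenolpyruvate, and the cytosolic glycerol 3-phosphate dehydrogenase (Gpd1) reduces the resulting dihydroxyacetone phosphate. Gpd2, in the inner mitochondrial membrane, runs the opposite reaction and passes electrons to the respiratory chain. Aqp7 is the channel through which fat cells release glycerol, and glycerol kinase, low in white fat and higher in brown fat and liver, recycles it. The kinases Pdk2 and Pdk4 phosphorylate and inhibit pyruvate dehydrogenase, which spares pyruvate for carboxylation.

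Pck1 is a textbook target of the cAMP-responsive factor CREB, and its upstream region is shown beside those of Pck2, its isozyme gene, and of Pcx and Gpd2, the genes with the largest differences between the groups. The sequences are from RefSeq (GRCm38.p6) and cover the 250 bases before the annotated start, written 5′ to 3′ on the strand of the gene, with the more upstream start for Pcx and Gpd2. Of the 9 genes 8 had an entry, and Gpd1 had none.
Pck1 (chr2:173152823-173153072, forward strand): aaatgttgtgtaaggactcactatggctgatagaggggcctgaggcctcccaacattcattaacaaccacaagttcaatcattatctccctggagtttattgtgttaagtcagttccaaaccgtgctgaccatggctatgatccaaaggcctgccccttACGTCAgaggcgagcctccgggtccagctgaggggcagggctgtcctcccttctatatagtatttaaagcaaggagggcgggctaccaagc
Pck2 (chr14:55540016-55540265, forward strand): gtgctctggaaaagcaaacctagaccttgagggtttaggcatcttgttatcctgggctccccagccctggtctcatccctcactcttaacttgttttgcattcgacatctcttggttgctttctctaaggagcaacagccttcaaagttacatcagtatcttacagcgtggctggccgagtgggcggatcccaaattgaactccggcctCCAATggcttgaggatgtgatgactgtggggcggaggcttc
Pcx (chr19:4510222-4510471, forward strand): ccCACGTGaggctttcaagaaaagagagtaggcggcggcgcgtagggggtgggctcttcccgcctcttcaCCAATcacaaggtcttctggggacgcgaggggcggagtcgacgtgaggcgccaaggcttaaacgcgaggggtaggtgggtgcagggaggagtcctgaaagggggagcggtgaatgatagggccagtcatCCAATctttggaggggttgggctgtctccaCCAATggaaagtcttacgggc
Gpd2 (chr2:57237428-57237677, forward strand): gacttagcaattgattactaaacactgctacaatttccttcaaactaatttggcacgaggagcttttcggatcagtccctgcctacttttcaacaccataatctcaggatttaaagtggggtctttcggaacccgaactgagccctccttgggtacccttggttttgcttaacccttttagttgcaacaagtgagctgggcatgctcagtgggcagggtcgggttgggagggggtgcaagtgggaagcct
Capitals mark matches, on either strand, to the CREB core ACGTCA, the nuclear receptor half-site AGGTCA, the CCAAT box (CCAAT) or the E-box CACGTG; no marked matches overlapped. The CREB core began 91 bases before the start of Pck1. It lay in 1 of the 12 windows of these genes, against 6.47% of 32851 windows of the same length over all genes. The CCAAT box lay in 4 of the 12 windows (Pck2, Pcx, Pdk2 and Pdk4), against 33.85% of all, and the E-box in 3 (Gk, Pcx and Pdk2), against 6.02%. The nuclear receptor half-site lay in both windows of Aqp7, which overlap and share 1 match, and in 14.02% of all windows. These are matches of letters and were not measured as binding sites.

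The arrays differed in markers of other tissues. Alb, the albumin gene of hepatocytes, was at 13.72 and 13.55 in restricted arrays 1 and 3, at 9.17 in array 2 and at 9.37, 9.98 and 9.98 in control arrays 1, 2 and 3. Of 16 liver markers, 15 exceeded every control in each of arrays 1 and 3, and 1 did in array 2, and their mean was 10.94, 6.39 and 10.42 in restricted arrays 1, 2 and 3 against 6.47 to 6.77 in the controls. The brown fat marker Ucp1 was at 10.25 and 7.37 in control arrays 1 and 3. In the other 4 arrays it was at 4.87 to 4.94. The mean of 8 brown fat markers was 8.12, 5.73 and 6.46 in control arrays 1, 2 and 3. Under chromium restriction it was 6.29, 5.46 and 6.25. These means include Slc27a2, which was high where the liver markers were. Slc27a2 was at 10.99 and 10.28 in restricted arrays 1 and 3, 5.11 in array 2 and 5.61 to 6.89 in the controls. All 9 intestinal markers exceeded the highest control in restricted array 2 (mean 7.09, against 5.44 to 5.60 in the controls), and 7 and 4 did in arrays 1 and 3. Adipocyte markers were high in every array, with Fabp4, a fatty acid binding protein gene, at 13.53 to 13.72. The mean of 9 markers was 11.39, 11.70 and 11.66 in restricted arrays 1, 2 and 3 and 11.78 to 11.93 in the controls. Their differences between the groups ran from -0.78 (Slc2a4) to -0.01 (Lep). Of 11 markers measured, Adipoq (difference -1.22) and Pparg (1.98) were left out of this mean. Their rows of the deposited table hold values written with more digits than the rest. The means of markers of skeletal muscle (up to 5.80), kidney (5.20 to 5.45) and pancreas (5.40 to 5.62) were near the array medians (5.44 to 5.57). Acta1, a muscle marker, was higher, at 9.73, 7.72 and 8.36 in restricted arrays 1, 2 and 3 and 8.05 to 8.67 in the controls. Macrophage markers had means of 9.69, 9.09 and 9.03 in restricted arrays 1, 2 and 3 and 8.61 to 9.16 in the controls. All 5 exceeded the highest control in restricted array 1, and 1 did in each of arrays 2 and 3. In whole tissue, fewer cells of a type and less RNA per cell cannot be told apart.

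The cytosolic carboxykinase gene Pck1 was among the brighter signals of these arrays. It was at 12.07, 12.57 and 12.38 in restricted arrays 1, 2 and 3 and at 12.60, 12.79 and 12.83 in control arrays 1, 2 and 3. The groups did not overlap, but the highest chromium restriction array lay within 0.1 of the lowest control. The means were 12.34 ± 0.25 and 12.74 ± 0.12 (SD, n = 3 per group), a 1.32-fold lower level in the chromium restriction group, with a log2 difference of -0.40 ± 0.14 (SE, unadjusted p = 0.0299, limma adjusted p = 0.814). Without restricted array 1 the difference was -0.26.

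Pck2, the mitochondrial isozyme gene, had the lower value of every chromium restriction array as well. It was at 7.53, 7.65 and 7.18 in restricted arrays 1, 2 and 3 and at 7.996, 7.87 and 8.19 in the controls, again without overlap. The means of 7.45 ± 0.24 and 8.02 ± 0.16 (SD, n = 3) gave a 1.48-fold lower level, a difference of -0.56 ± 0.15 (SE, unadjusted p = 0.00816, limma adjusted p = 0.678). Among the 8 genes this was the smallest p. In restricted array 2, where 11 of the 16 liver markers were below the lowest control and 1 above the highest, Pck2 lay 0.37 below the control mean and Pck1 0.17 below.

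Pcx, the gene of the enzyme that feeds oxaloacetate into the pathway, separated the arrays differently. It was at 10.26 and 10.46 in restricted arrays 1 and 3, at 11.36 in array 2, and at 11.23, 11.72 and 11.69 in control arrays 1, 2 and 3. Restricted arrays 1 and 3 were below every control, while array 2 lay inside the control range. The means were 10.70 ± 0.58 and 11.54 ± 0.27 (SD, n = 3), a difference of -0.85 ± 0.30 (SE, unadjusted p = 0.0302, limma adjusted p = 0.816), and array 2 alone was 0.18 below the control mean.

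**Figure D1:**
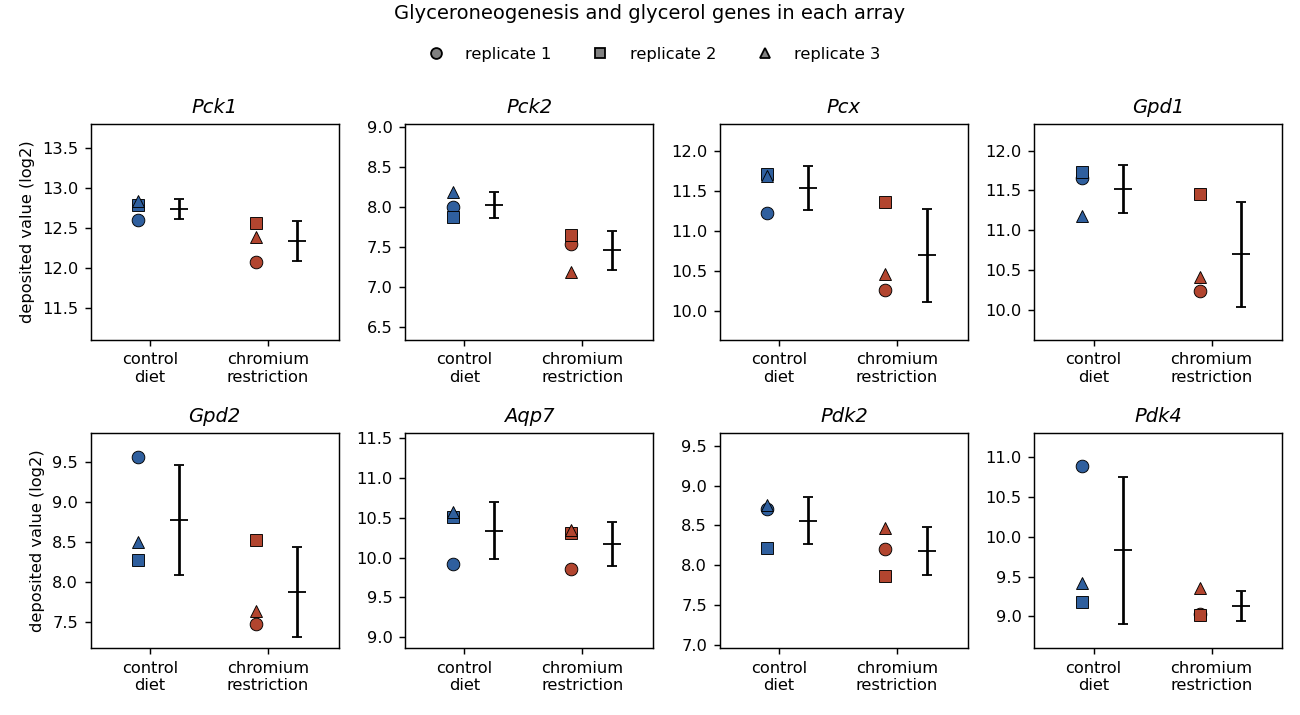
Deposited log2 values of the 8 measured genes in each array, by group (blue, control; red, chromium restriction) and replicate number (marker shape); black bars are the mean and SD of 3 arrays, and each panel has its own axis of the same length. Pck1 and Pck2 do not overlap between groups, Pcx, Gpd1 and Gpd2 are low in restricted arrays 1 and 3 (for Gpd1, 10.24 and 10.41), and Pdk4 is high in control array 1 (10.88).

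Both glycerol 3-phosphate dehydrogenase genes shared the pattern of Pcx. Gpd1 was at 10.24 and 10.41 in restricted arrays 1 and 3, at 11.45 in array 2, and at 11.66, 11.73 and 11.18 in the controls. Its difference was -0.82 ± 0.34 (SE, n = 3, unadjusted p = 0.0502, limma adjusted p = 0.817), while array 2 differed from the control mean by only -0.07. The dimmer probe set of Gpd1 was at 5.87 and 6.03 in arrays 1 and 3, at 6.52 in array 2 and at 6.28 to 6.73 in the controls. It put the 6 arrays in the same order, with a smaller difference of -0.38.

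Gpd2, the mitochondrial partner of Gpd1 in the glycerol phosphate shuttle, had a spread in the controls as well. It was at 7.48 and 7.63 in restricted arrays 1 and 3 and at 8.52 in array 2, and at 9.57, 8.28 and 8.50 in control arrays 1, 2 and 3. Control array 1, which also had the most Ucp1, lay 1.18 above the mean of the other 2 controls. The group difference of -0.90 ± 0.42 (SE, n = 3, unadjusted p = 0.0706, limma adjusted p = 0.817) was the largest of the 8 genes. It was -0.51 without control array 1. Without both controls with raised Ucp1 it was -0.40, set against control array 2 alone, the lowest control for Gpd2. Gpd2 is abundant in brown fat; whether brown fat in control array 1 took part in this value was not tested.

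Aqp7, the glycerol channel of fat cells, differed least. It was at 9.86, 10.30 and 10.35 in restricted arrays 1, 2 and 3 and at 9.92, 10.51 and 10.57 in the controls, so that each group held 1 lower array and the ranges overlapped for most of their length. The difference was -0.16 ± 0.22 (SE, n = 3) with a 95% interval of -0.69 to 0.36 and a limma adjusted p of 0.986, and it ranged from -0.37 without control array 1 to -0.01 without restricted array 1. Restricted array 3, rich in liver transcripts, lay 0.01 above the control mean for Aqp7, while Pcx there lay 1.08 below it.

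The liver glycerol channel gene Aqp9 had the opposite profile. It was at 8.84 and 8.01 in restricted arrays 1 and 3, at 5.42 in array 2 and at 5.63, 5.43 and 5.29 in the controls. Both arrays with high Alb were thus above the other 4, and its group difference of 1.97 ± 0.83 (SE, n = 3) had a limma adjusted p of 0.817. Of the other 3 glycerol channel genes measured, Aqp3 differed by -0.01, Aqp5 by 0.06 and Aqp11 by -0.08. Of these 4 channel genes 0 passed the limma test, and 0 had an unadjusted p under 0.05.

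Neither kinase gene was lowest in both arrays rich in liver transcripts. Pdk2 was at 8.21, 7.87 and 8.47 in restricted arrays 1, 2 and 3 and at 8.71, 8.22 and 8.75 in the controls, with overlap. Its difference was -0.38 ± 0.21 (SE, n = 3, limma adjusted p = 0.859). Restricted array 2 alone was 0.69 below the control mean, and array 3 only 0.09. The difference was -0.22 without restricted array 2. Without both controls with raised Ucp1 it was -0.03, set against control array 2 alone, the lowest control for Pdk2.

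Pdk4, the kinase gene induced by fasting and fatty acids, turned on 1 array. It was at 9.03, 9.02 and 9.35 in restricted arrays 1, 2 and 3, at 9.19 and 9.42 in control arrays 2 and 3, and at 10.88 in control array 1. Control array 1 lay 1.58 above the mean of the other controls, which overlapped with the chromium restriction arrays. The difference of -0.70 ± 0.44 (SE, n = 3, limma adjusted p = 0.907) became -0.17 without control array 1. Without both controls with raised Ucp1 it was -0.05, set against control array 2 alone, the lowest control for Pdk4. Ucp1 was also highest in control array 1, and its part in the Pdk4 value was not tested.

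**Figure D2:**
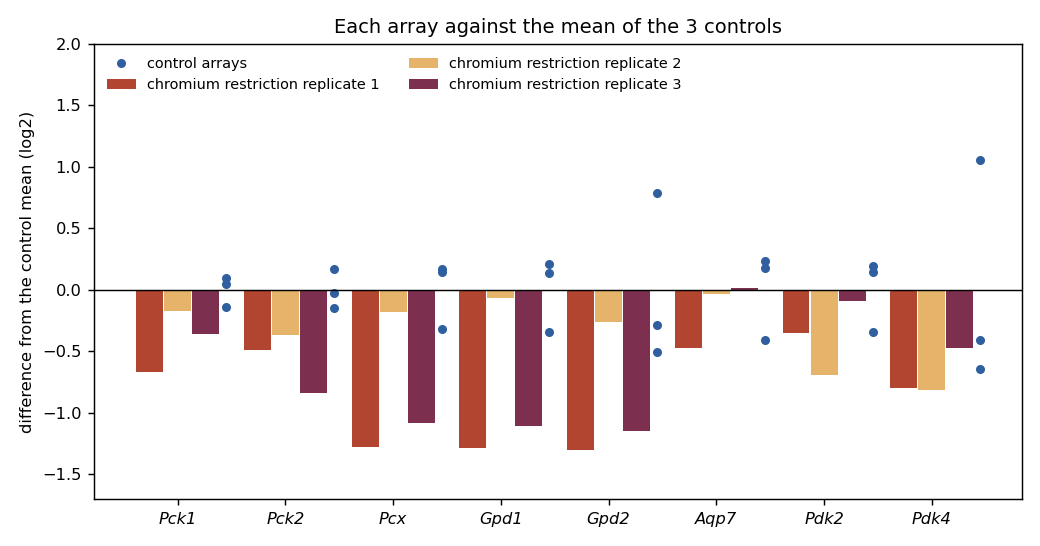
Difference of each array from the mean of the 3 controls (log2) for the 8 measured genes; bars are the restricted arrays and blue points the controls. For Pcx, Gpd1 and Gpd2 arrays 1 and 3 lie 1.08 to 1.30 below the control mean and array 2 lies 0.07 to 0.26 below it, while for Pdk2 the lowest bar is array 2 and for Pdk4 arrays 1 and 2 are level (-0.80 and -0.81).

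All 8 measured genes had a lower mean in the chromium restriction group, with a median difference of -0.63, except that Aqp7 was 0.085 higher when arrays were centred on 9 adipocyte markers, which moved the median of all genes to 0.23. Over all genes tested 56.8% had a lower mean, and the median difference was -0.02. At an adjusted p of 0.05 in limma 0 of the 8 genes were called, where 0.194% of all genes were called. At an unadjusted p under 0.05 there were 3 (Pck1, Pck2 and Pcx), all lower, against 3.53% of all genes lower at that level. The groups did not overlap for 2 genes (Pck1 and Pck2), against 6.06% of all genes not overlapping with chromium restriction lower; for these 2 an exact permutation test, two-sided, gave p = 0.1, the smallest that 3 arrays against 3 allow. The 8 genes were read on the same 6 arrays and are not replicates of the comparison.

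The shift was not spread evenly over the 3 chromium restriction arrays. Restricted array 1 was below the lowest control for 8 of 8 genes, array 3 for 5 and array 2 for 4. Some of these gaps were narrow: for Pdk2 array 1 was at 8.210 and the lowest control at 8.217. The share of all genes below the lowest control was not computed for each array, so these counts are only a description. The median distance from the control mean was -0.73 in array 1, -0.66 in array 3 and -0.22 in array 2, against -0.01, -0.03 and -0.02 over all genes. For 5 genes, Pck1, Pck2, Pcx, Gpd1 and Gpd2, the 2 arrays with high Alb were the 2 lowest of the 6, as they were for 12.0% of all genes. Aqp7, Pdk2 and Pdk4 did not have this order.

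Leaving out arrays moved the genes in different ways. Without restricted array 2, so that both remaining chromium restriction arrays were rich in liver transcripts, Pcx fell by 1.18 (limma adjusted p = 0.0365) and Gpd1 fell by 1.20 (limma adjusted p = 0.0432). These were 2 of the 8 genes, where 0.514% of all genes were called lower under that choice. Most genes called in that fit were higher: 325 higher and 114 lower, of 439. With array 2 as the only chromium restriction array, 1 array against 3, Pcx differed by -0.18, Gpd1 by -0.07, Gpd2 by -0.26, Pck1 by -0.17 and Pck2 by -0.37. Pdk2 and Pdk4 instead moved to -0.69 and -0.81 there, and 0 of the 8 genes passed, with Pdk2 alone at an unadjusted p under 0.05. That fit assumes that the lone array varies like the controls, and array 2 had the highest mean of intestinal markers. With a covariate made from 7 averaged liver genes Pcx differed by -0.24 and Pdk2 by -0.66, close to array 2 alone. That covariate was 11.33 and 10.90 in restricted arrays 1 and 3 and 6.55 to 6.94 in the other arrays. It thus nearly sets arrays 1 and 3 aside, so the closeness is largely built in and is not separate evidence. Leaving out both controls with high Ucp1 left control array 2 as the only control. Pcx, Gpd1, Pck1 and Aqp7 then differed by -1.02, -1.03, -0.45 and -0.34, more than with all arrays. Pck2, Gpd2, Pdk2 and Pdk4 differed by -0.41, -0.40, -0.03 and -0.05, less than with all arrays. The maternal diet and the liver transcripts cannot be told apart in arrays 1 and 3.

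**Figure D3:**
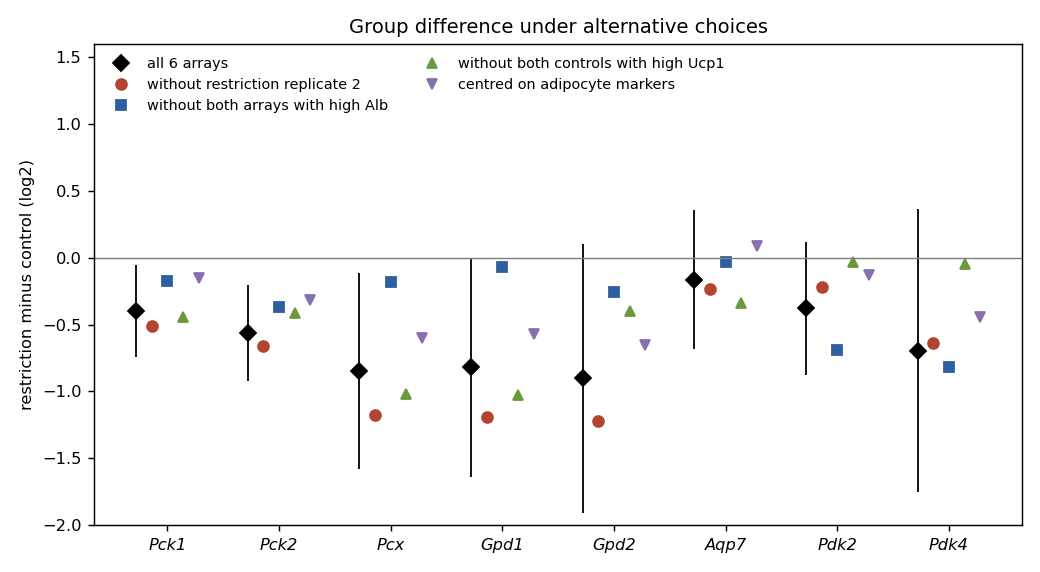
Group difference (chromium restriction minus control, log2) of the 8 measured genes with all 6 arrays (black, with limma's 95% interval), without restricted array 2, without the 2 chromium restriction arrays with high Alb, without the 2 controls with high Ucp1, and with each array centred on adipocyte markers. Without the arrays with high Alb the value moves towards 0 for Pcx (-0.18) and Gpd1 (-0.07), and away from 0 for Pdk2 (-0.69). Leaving out the 2 controls with high Ucp1 leaves control array 2 alone.

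The subunit genes of the pyruvate dehydrogenase complex, which Pdk2 and Pdk4 inhibit, were low in the arrays in which Pcx and Gpd1 were low. Pdha1, Pdhb, Dlat, Dld and Pdhx lay between -1.52 and -0.97 from the control mean in restricted array 1, between -1.61 and -0.63 in array 3 and between -0.30 and 0.04 in array 2. Of the other genes of this list, Pdpr, a regulator of the phosphatase, was at -0.60, -0.13 and -0.33 in arrays 1, 2 and 3. Dlat, Pdhx, Pdpr and Pdk1 were below every control in array 2 as well. For Dlat, Pdhx and Pdpr array 2 was at 8.48, 7.87 and 7.85, against lowest controls of 8.51, 7.95 and 7.89. Pdk3, Pdp1 and Pdp2 were not below every control in both arrays 1 and 3. Pdk1 was at -0.43, -0.46 and -0.61 from the control mean in arrays 1, 2 and 3, Pdk3, another kinase gene, at -0.46, 0.10 and 0.49, and Pdp1, a phosphatase gene, at 0.07, 0.14 and -0.19. Of 10 genes of the complex, its other kinases and its phosphatases, 0 passed the limma test, 6 were lower at an unadjusted p under 0.05 (3.53% of all genes), and the median difference was -0.56 against -0.02 over all genes. Pdha1, which encodes the catalytic alpha subunit, was at 9.64 and 9.55 in restricted arrays 1 and 3, at 11.02 in array 2 and at 11.40, 11.25 and 10.82 in the controls. Restricted arrays 1 and 3 were more than 1 log2 unit below every control, and array 2 lay inside their range. Pdhx, the component that binds the E3 subunit, differed by -0.77 ± 0.23, Dlat, the acetyltransferase, by -0.61 ± 0.21 and Pdk1, another inhibitory kinase, by -0.50 ± 0.11 (SE, n = 3). Pdk1 was at 7.74, 7.71 and 7.56 in restricted arrays 1, 2 and 3 and at 8.30, 8.22 and 7.99 in the controls, so all 3 chromium restriction arrays were low for it, with a limma adjusted p of 0.546.

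Genes that carry pyruvate, oxaloacetate and reducing power between compartments were divided. Of 11 measured, 0 passed, 8 had a lower mean and the median difference was -0.34. Mpc1, a subunit of the mitochondrial pyruvate carrier, was at 11.75, 12.74 and 12.01 in restricted arrays 1, 2 and 3 and at 12.90, 13.01 and 12.58 in the controls. Mdh2, the mitochondrial malate dehydrogenase gene, differed by -0.38 ± 0.12 (SE, n = 3), without overlap. Both genes of this list that were higher at an unadjusted p under 0.05 were highest in the arrays with high Alb. Got1, a cytosolic aminotransferase gene, was at 8.49 and 8.07 in arrays 1 and 3, at 7.24 in array 2 and at 6.67 to 6.91 in the controls. Slc25a13, the aspartate/glutamate carrier gene of liver, was at 8.14 and 7.56 in arrays 1 and 3, at 5.46 in array 2 and at 5.24 to 5.39 in the controls.

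Fbp1 and G6pc, genes of the last steps of gluconeogenesis, by which liver and kidney free glucose, were high in the same 2 arrays. Fbp1, fructose bisphosphatase, was at 9.81 and 9.08 in restricted arrays 1 and 3, at 4.80 in array 2 and at 4.90 to 5.20 in the controls. G6pc, the glucose 6-phosphatase gene, was at 8.70 and 7.67 in arrays 1 and 3, at 5.27 in array 2 and at 5.29 to 5.63 in the controls. In array 2 and the controls both lay near or below the array medians. Pklr, a liver pyruvate kinase gene, differed by 1.66 ± 0.51, and Fbp2, the muscle form of fructose bisphosphatase, by -0.37 ± 0.11 (SE, n = 3). None of the 5 measured genes of this list passed the limma test. At an unadjusted p under 0.05 there was 1 higher (Pklr, not Fbp1 or G6pc) and 1 lower (Fbp2). Over all 22180 genes 537 were higher and 782 lower at that level.

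**Figure D4:**
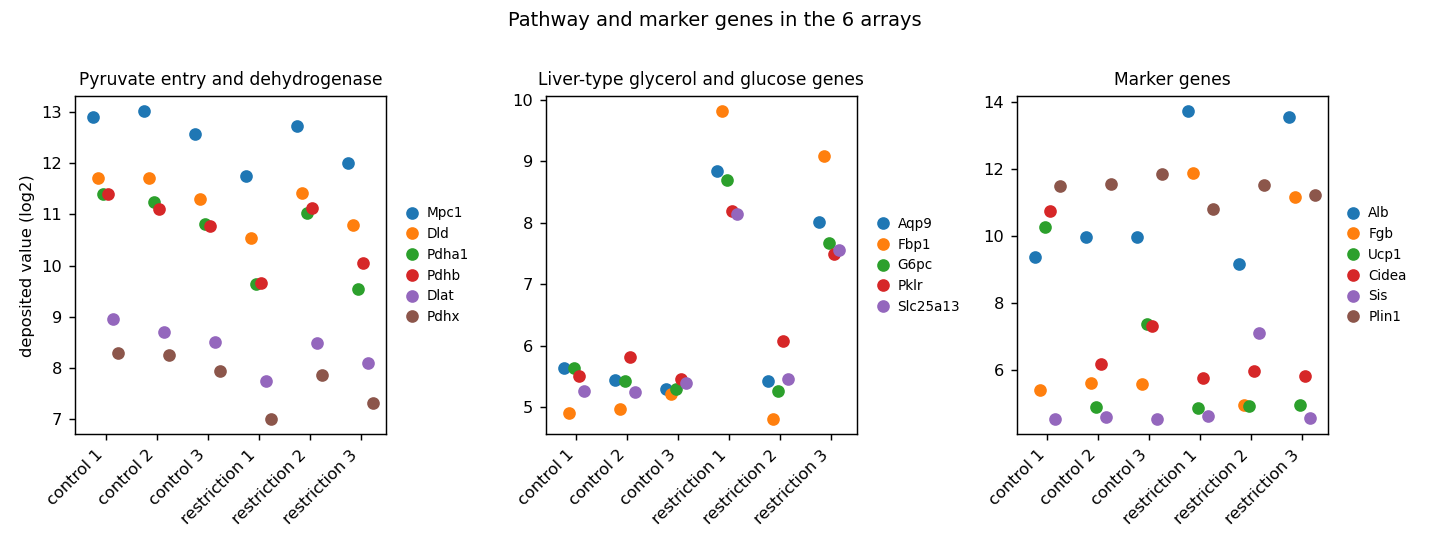
Deposited log2 values in the 6 arrays for genes of pyruvate entry and dehydrogenation, for glycerol and glucose genes typical of liver, and for markers of liver (Alb, Fgb), brown fat (Ucp1, Cidea), intestine (Sis) and fat cells (Plin1); points of 1 array are set side by side. Fbp1 is at 9.81 and 9.08 in restricted arrays 1 and 3, the arrays in which Pdha1 is at 9.64 and 9.55.

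Between triose phosphate and glycerol 3-phosphate, 0 of 8 measured genes passed and the median difference was -0.27. Gapdh, the glycolytic dehydrogenase gene, differed by -0.34 ± 0.16, Gpd1l, a relative of Gpd1, by -0.27 ± 0.16 and Pgp, whose product can dephosphorylate glycerol 3-phosphate, by -0.26 ± 0.10 (SE, n = 3). Tpi1, which interconverts the triose phosphates, differed by 0.06. Gk5, a relative of glycerol kinase, was at 5.41, 6.48 and 5.93 in restricted arrays 1, 2 and 3 and at 6.10 to 6.37 in the controls, a difference of -0.29 ± 0.26 (SE, n = 3).

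Upstream of glycerol release, 0 of 5 lipolysis genes passed. Pnpla2, which encodes the first triglyceride lipase, was at 12.00, 12.28 and 12.35 in restricted arrays 1, 2 and 3 and at 12.54, 12.52 and 12.63 in the controls, without overlap (difference -0.35 ± 0.11, SE, limma adjusted p = 0.760). Its activator gene Abhd5 differed by -0.81 ± 0.23 and the hormone-sensitive lipase gene Lipe by -0.14 ± 0.15 (SE, n = 3).

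Downstream, where glycerol 3-phosphate is acylated, 1 of 9 genes passed and it was lower. This was Gpat4, a glycerol 3-phosphate acyltransferase gene of the endoplasmic reticulum (difference -0.93 ± 0.06, SE, limma adjusted p = 0.00434), whose row of the deposited table holds values written with more digits than the rest. Such rows number 64, none of the 8 genes above lies in one, and the sources used here do not say how they were made. Lpin1, a phosphatidate phosphatase gene, was at 9.63, 10.33 and 10.05 in restricted arrays 1, 2 and 3 and at 10.90, 10.77 and 10.80 in the controls. All 3 chromium restriction arrays were below every control, and the difference was -0.82 ± 0.18 (SE, limma adjusted p = 0.547). Gpat3 and Agpat2, acyltransferase genes of fat cells, differed by -0.94 ± 0.35 and -0.85 ± 0.27 (SE, n = 3). Not all of the list was lower: 6 genes had a lower mean and 3 a higher one, with a median difference of -0.48. Lpin2, a relative of Lpin1, differed by 0.78 ± 0.31 (SE, limma adjusted p = 0.817). Lpin2 was at 7.99 and 7.63 in restricted arrays 1 and 3, at 6.76 in array 2 and at 6.51 to 6.84 in the controls.

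Among 19 measured regulators of Pck1, Pdk4 and Aqp7, 2 were called higher and 1 lower, all 3 in rows with extra digits. Pparg, the nuclear receptor of fat cells that drives Pck1 and Aqp7, was listed 1.98 higher (limma adjusted p = 0.000841) and Cebpa, an adipogenic transcription factor gene, 0.82 higher (limma adjusted p = 0.0463). Ppard, a related nuclear receptor gene, was listed at -1.20 (limma adjusted p = 0.00275). Without rows with extra digits 0 regulators could be called, as 0 genes passed in all in limma, with 1264 at an unadjusted p under 0.05. Outside such rows Dbp, a clock output gene, differed by -1.02 ± 0.13 (SE, limma adjusted p = 0.0789) and Klf15, a glucocorticoid-induced factor gene, by -0.51 ± 0.12 (SE, limma adjusted p = 0.630). Hnf4a, a hepatocyte and gut factor gene, was at 7.57 and 7.16 in restricted arrays 1 and 3, at 6.05 in array 2 and at 5.60 to 6.44 in the controls.

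For the 5 genes whose range over the 6 arrays exceeded 1 log2 unit, the closest profiles were sought by the root mean square difference of values centred on each gene's mean, among 17123 other genes. Pcx was closest to Slc2a4, the insulin-responsive glucose transporter gene of fat and muscle, at 0.09, and then to Slc22a4 and Mr1. Gpd1 was closest to Sccpdh, Gbe1 (the glycogen branching enzyme gene) and Mpc1, at 0.11 to 0.13. Gpd2 was closest to Kcna4 at 0.15, with Slc2a5 and Angpt1 at 0.26. Pdk4 was closest to Coq8a, a gene of coenzyme Q synthesis, at 0.17, and then to Rergl and Fam204a. Pck2 was closest to Met, Zfp946 and Aldh2, at 0.09 to 0.11. Slc2a4 was at 8.04 and 8.23 in restricted arrays 1 and 3, at 9.10 in array 2 and at 9.08 to 9.35 in the controls. These profiles rest on 6 arrays that share their tissue makeup, and the likeness is a description.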

How the data were processed

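Total RNA of adipose tissue was labelled with biotin and hybridised to 6 arrays, per the labels. The deposited table holds 33793 probe sets; the authors' values were taken as log2 from their range of 3.49 to 14.86, and the summarisation, normalization, log base and genome build were not given in the sources used here. All 6 value columns were used as deposited. Background level is unknown, and the number of arrays limits the precision. Gene symbols came from the platform annotation. Group differences were fitted across all 22180 genes in limma 3.58.1 (R 4.3.3; lmFit, eBayes), two-sided, with Benjamini-Hochberg adjustment, and called at an adjusted p of 0.05; the script was tested on simulated data. The genes, gene lists, marker lists and tests were chosen with earlier results of these data known. Named genes are the 9 listed ones, the called genes of each of 8 pathway lists plus up to 3 others with the smallest p, the 3 closest profiles of each gene whose range exceeded 1 log2 unit, and markers; further list genes were named after their values were seen. Alternatives covered normalization, dim genes, eBayes options, array weights, the choice of probe set, a replicate block, single arrays, liver transcripts and rows with extra digits. Leaving out controls with high Ucp1 and centring on 9 adipocyte markers were chosen after seeing the data.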

Additional observations from a re-analysis of the deposited data

How the results depend on the processing

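Of 160 values for the 8 genes under 20 alternatives, 157 kept their direction and their side of the threshold. This count is no measure of stability. The choices on dim genes, eBayes options, every probe set, the replicate block and extra digits left these differences unchanged, so their direction could not turn. With all arrays the limma adjusted p of the 8 genes was already 0.678 to 0.986. Values counted as kept include Gpd1 at -0.07 without both arrays with high Alb, against -0.82 with all arrays. Aqp7 turned to 0.085 when arrays were centred on adipocyte markers, which by construction moved the median of all genes from -0.02 to 0.23, and Pcx and Gpd1 passed without chromium restriction replicate 2. The number of these 8 genes called in limma was 0 to 2 on leaving out each array, and 0 under the other alternatives (0 to 5 at an unadjusted p under 0.05). Over all genes 43 were called in limma, 20 higher and 23 lower, and 38 higher and 8 lower with centring on adipocyte markers. Leaving out each array gave 24 to 439, the highest without chromium restriction replicate 2 and 24 without chromium restriction replicate 3 or any control. The count was 6 without both arrays with high Alb. It was 0 without both controls with high Ucp1 (894 at an unadjusted p under 0.05), 0 with rows with extra digits left out (1264) and 0 with such values set to missing (1278). Of the pathway genes 4 were called (Gpat4, Pparg, Ppard and Cebpa), all in rows with extra digits, where 0.194% of all genes were called. Leaving out each array gave 2 to 19, with 2 without chromium restriction replicate 3 and 19 without replicate 2. It was 0 without both arrays with high Alb (11 at an unadjusted p under 0.05), 0 without both controls with high Ucp1 (10), 0 with rows with extra digits left out (22) and 0 with such values set to missing (22). With the replicate number as a block 0 of all genes were called in limma (1337 at an unadjusted p under 0.05), 0 pathway genes (30) and 0 of the 8 genes (5). Arrays with the same replicate number share only a number: their deviations from the group means correlated at -0.12, -0.09 and 0.08 over genes. The causes of these differences were not tested, and the unknown background limits dim genes.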
